A study of Mus musculus with 8 samples.

Results

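N-acylethanolamines and 2-arachidonoylglycerol are signalling lipids cut from membrane phospholipids on demand. The enzymes that make and break them, with the cannabinoid receptor they act on, are described here in cells sorted from mouse cortex as astrocytes. The 10 genes were taken by symbol from 24047 rows of the deposited counts: Napepld, Abhd4 and Gde1 for N-acylethanolamine synthesis, Faah for its breakdown, Dagla and Daglb for synthesis of 2-arachidonoylglycerol, Mgll, Abhd6 and Abhd12 for its breakdown, and the receptor gene Cnr1. All 10 had a row, and all 10 passed the filter on low counts that left 10954 genes for testing. The list was chosen by an earlier result of these data, the difference of Abhd4 between genotypes in the same contrast, to which genes of its pathway were added. That difference is therefore a description here: its fitted values and the settings under which it was called are given, but they are no independent test, and nothing rests on them.

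The samples were 4 libraries labelled Ptch1cKO (mouse line Glast-CreERT2; Ptch1fl/fl; Ai14) and 4 labelled WT (Glast-CreERT2; Ai14). Both groups carried CreERT2, a Cre recombinase switched on by tamoxifen and driven here by the Glast promoter, and the Ai14 reporter, which makes the red protein tdTomato where Cre has acted. Both received tamoxifen by intraperitoneal injection on postnatal days 12 to 14 (10 to 15 µl at 20 mg/ml), and tdTomato-positive cells were sorted from the somatosensory cortex at postnatal days 23 to 25. Ptch1 is the Sonic hedgehog receptor that restrains the pathway in the absence of ligand, so the comparison asks what its removal from these cells changes. The Glast promoter is also active in other radial glia-derived cells, the sort selects reporter recombination and not loss of Ptch1, and the sources used here do not give the number of animals behind each library. P-values therefore measure the spread between these samples.

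Libraries held 4061274 to 7043378 counts in Ptch1cKO and 4958119 to 7206462 in WT. The targeted gene Ptch1 had 168 to 258 CPM (counts scaled to a common library size, adjusted by the TMM method) in Ptch1cKO and 227 to 491 CPM in WT, so the ranges overlapped. The overlap came through WT replicate 2, at 227 CPM. In edgeR the log2 fold change of Ptch1cKO over WT was -0.67 (unadjusted p = 0.00765, adjusted p = 0.349). The count covers the whole gene, and a transcript that lacks floxed exons is still counted. The female-specific transcript Xist was present in WT replicates 2 and 3 (1148 and 612 counts), and each of the other 6 libraries had 4 counts or fewer. All 10 astrocyte markers examined were present in every library, summing to 20620 to 39170 CPM in Ptch1cKO and 23940 to 33990 CPM in WT. Transcripts of other cell types were present as well. The oligodendrocyte lineage sum was above the astrocyte sum in WT replicate 2 (26670 against 23940 CPM) and Ptch1cKO replicate 3 (20960 against 20620 CPM). In every other library it was below. The 10 oligodendrocyte lineage markers summed to 17530 to 23150 CPM in Ptch1cKO and 13790 to 26670 CPM in WT, and the 10 neuronal markers to 3972 to 5141 and 4016 to 5486 CPM in the same order of groups. The 10 microglial markers summed to 483 to 1274 CPM in Ptch1cKO and 440 to 866 CPM in WT, and all 10 had positive fold changes. Fold changes were also positive for 8 of 9 tested oligodendrocyte lineage, 8 of 10 astrocyte, 5 of 10 neuronal and 1 of 4 tested vascular markers. Over all genes tested 49.6% were positive. An unadjusted p under 0.05 (edgeR) was found for 3 oligodendrocyte lineage markers, Mag, Cnp and Mobp. Each other list had 1 such marker: C1qc (microglia), Ndrg2 (astrocytes), Rbfox3 (neurons) and Rgs5 (vascular). The share over all genes tested was 9.34%. Ndrg2 was higher in Ptch1cKO without overlap (log2 fold change 0.54), and Rgs5 was lower (-1.46). No marker of any list was called by edgeR over all genes. The 10 vascular markers summed to at most 32.4 CPM in Ptch1cKO and 35.8 CPM in WT, with Cldn5, Kcnj8 or Vtn at 0 in 6 of the 8 libraries. In bulk samples of this kind, fewer cells of a type and less RNA per cell cannot be told apart. The deposited columns carry prefixes that each occur within a single genotype, so whatever they stand for cannot be told apart from genotype.

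As background, anandamide and its N-acylethanolamine relatives are released from N-acylphosphatidylethanolamine. The phospholipase D encoded by Napepld does this in a single step. Abhd4 encodes a lipase that strips acyl chains from the same precursor, and the phosphodiesterase encoded by Gde1 then frees the N-acylethanolamine, so these enzymes form a second route. Fatty acid amide hydrolase, the Faah product, ends the signal. The better known endocannabinoid of the brain, 2-arachidonoylglycerol, is made from diacylglycerol by diacylglycerol lipases and is broken down mainly by monoacylglycerol lipase (Mgll), with Abhd6 and Abhd12 doing part of the work. In the cortex, Cnr1 is best known from inhibitory nerve terminals, and astrocytes are known as a site where 2-arachidonoylglycerol is broken down.

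The gene that differed is Abhd4 (ENSMUSG00000040997), on chromosome 14 of GRCm38 (mm10) at 54254188 to 54270637, plus strand. GENCODE M21 places its first start 83 bases from that of Dad1, which is transcribed in the opposite direction, and annotates further transcripts from a start inside the gene. Of the 250 bases before the first RefSeq start of Abhd4, 226 lie in annotated exons, and that window is not shown. Shown are the bases just before the inner start. They run from chr14:54259033-54259231 on the plus strand, 199 bases that end where the annotated exon begins, and come from the RefSeq promoter window of build GRCm38.p6. Capitals mark a GC box (GGGCGG or its reverse complement CCGCCC).
Abhd4 inner promoter: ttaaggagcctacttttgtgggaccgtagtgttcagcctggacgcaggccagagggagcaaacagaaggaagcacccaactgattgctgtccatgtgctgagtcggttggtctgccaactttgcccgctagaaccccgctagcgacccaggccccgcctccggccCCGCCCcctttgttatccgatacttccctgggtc
The consensus of the Gli transcription factors, GACCACCCA, was searched on both strands in the 250 bases before each RefSeq start. It was found in neither of the 2 Abhd4 windows and in 0 of the 13 windows of the 8 genes with an entry, against 0.225% of 32851 windows genome-wide. A GC box was found in 7 of the 13 windows, including both of Abhd4, against 32.7% of all windows. The CCAAT box, searched as CCAAT on both strands, was found in 3 of the 13, against 33.8%. The motifs searched do not overlap one another in their letters, and the absence of these letters from a window says nothing about a factor.

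Abhd4 had 1155, 979, 636 and 970 counts in Ptch1cKO replicates 1 to 4, and 574, 568, 737 and 444 counts in WT replicates 1 to 4. Scaled for library size, these were 164, 170, 156 and 160 CPM in Ptch1cKO and 96.6, 89.3, 103 and 91.4 CPM in WT. All 4 Ptch1cKO libraries lay above all 4 WT libraries, and the lowest Ptch1cKO value was 1.52 times the highest WT value. The means were 163 ± 5.81 CPM in Ptch1cKO and 95.1 ± 6.12 CPM in WT (SD, n = 4 each), a log2 fold change of 0.78 with a standard error (SE) of 0.13, or 1.71-fold. In the authors' TPM (which also scale for transcript length), Abhd4 averaged 152 ± 11.2 in Ptch1cKO and 96.5 ± 5.42 in WT (SD, n = 4 each).

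The replicates of Abhd4 lay close together. Its difference chose the list, and such a choice favours a gene with small spread, so nothing is read from this closeness. Its coefficient of variation in CPM was 3.57% in Ptch1cKO and 6.44% in WT, where counting error alone, at its mean counts, gives 3.27% and 4.15% in the same order. Among the WT libraries, the 2 with Xist had 89.3 and 103 CPM and the 2 without had 96.6 and 91.4 CPM. All Ptch1cKO libraries had 4 Xist counts or fewer, so Xist was not balanced between genotypes. With 2 libraries on each side, nothing is read from these values. In the fit over all genes, Abhd4 was 1 of 11 genes past an adjusted p of 0.05 (edgeR's quasi-likelihood test, Benjamini-Hochberg), 0.1% of those tested. It was 1 of the 9 that were higher in Ptch1cKO (0.0822% of those tested), and nothing is read from that count since it chose the list. With 1 library left out at a time the log2 fold change stayed between 0.75 and 0.81, but Abhd4 passed in 1 of the 8 such fits, the one without Ptch1cKO replicate 2. Without each of the other 7 libraries its adjusted p was 0.0592 to 0.132. The opposite neighbour Dad1, an oligosaccharyltransferase subunit, had 129 ± 21.1 CPM in Ptch1cKO and 149 ± 16.9 CPM in WT (SD, n = 4 each), and its groups overlapped. It was named after its values were seen.

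**Figure D1:**
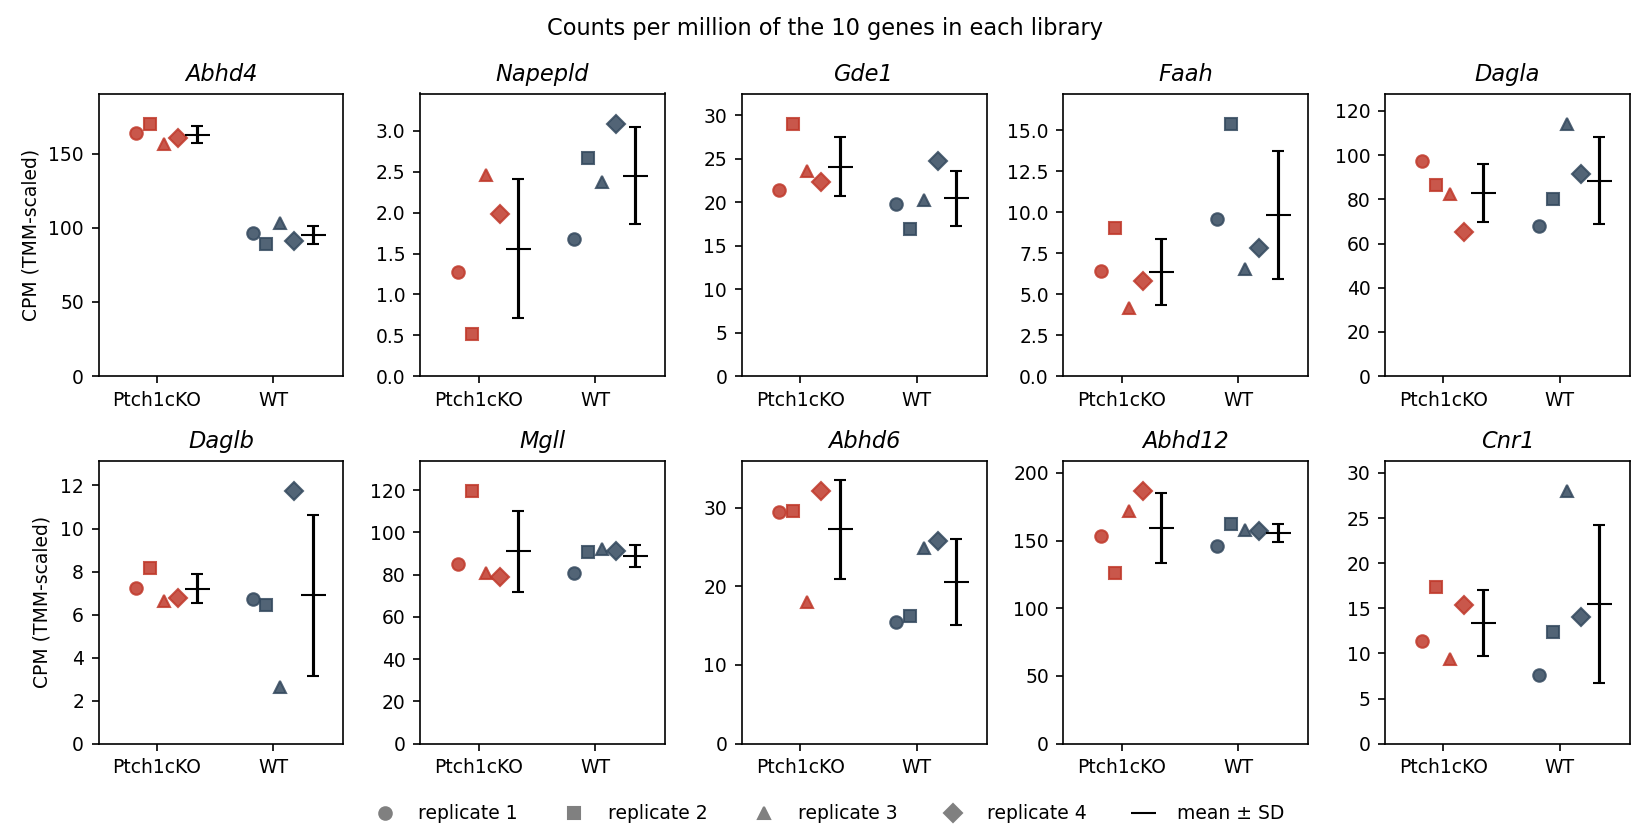
Each panel plots one gene, with CPM on the vertical axis from 0 and genotype on the horizontal axis; points are single libraries, marked by replicate, and the black bar is the mean ± SD of 4. Abhd4 at top left is the one gene whose Ptch1cKO libraries (156 to 170 CPM) all lie above the WT libraries (89.3 to 103 CPM). Its difference chose the list, so nothing is read from that contrast.

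None of the 9 other genes passed, and none had an unadjusted p under 0.05 (edgeR, Benjamini-Hochberg adjusted p = 0.606 to 0.971). DESeq2, which called 80 genes over the whole table, called none of them either. Over all genes tested 0.1% were called and 9.34% had an unadjusted p under 0.05, so a count of 0 among 9 genes is near that background. The groups of each of the 9 overlapped in CPM, where 5.02% of all genes tested did not overlap, or 2.52% with Ptch1cKO higher. Those of Abhd4 did not overlap, and nothing is read from that since its difference chose the list. The log2 fold changes of the 9 ran from -0.67 to 0.41, 5 positive and 4 negative (49.6% of all genes tested were positive), with a median of 0.03 against -0.0019 over all genes tested. Because a missed threshold does not show that levels were alike, the 95% interval of each difference is given with it.

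**Figure D2:**
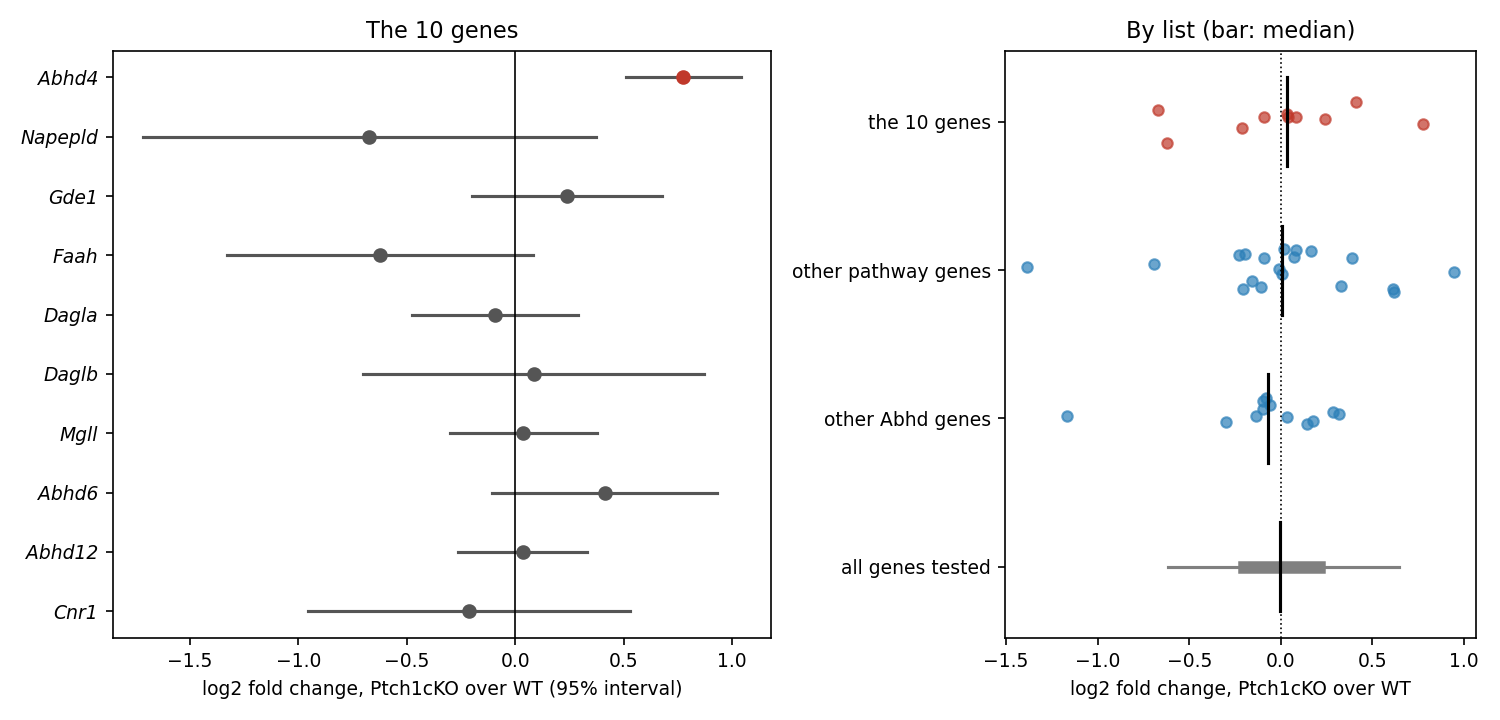
The left panel plots the log2 fold change of Ptch1cKO over WT for each gene with its 95% interval, and the right panel the fold changes of the 10 genes, 19 other pathway genes and 12 other Abhd genes above all genes tested (thick line, 25th to 75th percentile, -0.20 to 0.21; thin line, 5th to 95th percentile, -0.62 to 0.65). The position of Abhd4 (red) was fixed by the choice of the list, and its interval is drawn for its width only. Each of the other 9 intervals spans 0.

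In the direct route, Napepld was the gene with the fewest reads. It had 9, 3, 10 and 12 counts in Ptch1cKO and 10, 17, 17 and 15 counts in WT, or 1.56 ± 0.846 and 2.46 ± 0.592 CPM in the same order (SD, n = 4 each). The groups overlapped, with the lowest value in Ptch1cKO replicate 2. The log2 fold change was -0.67 (SE 0.49, 95% interval -1.72 to 0.37), so a difference was not detectable at this depth.

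Gde1, which completes the route that Abhd4 opens, had 21.4, 29.0, 23.6 and 22.3 CPM in Ptch1cKO and 19.9, 17.0, 20.3 and 24.7 CPM in WT. The groups overlapped through WT replicate 4, and the log2 fold change was 0.24 (SE 0.21, 95% interval -0.20 to 0.68). An exon of Gde1 overlaps the opposite-strand gene Gm45236, and the sources used here do not say whether reads were assigned by strand. As a share of the summed TPM of Napepld, Abhd4 and Gde1, Abhd4 transcripts made up 76.0 to 80.2% in Ptch1cKO and 65.7 to 72.9% in WT, and Napepld 0.173 to 0.907% in Ptch1cKO and 0.931 to 1.65% in WT. These shares contain the Abhd4 difference and are descriptions of transcript amounts, not of enzyme activity.

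Faah, the hydrolase that inactivates anandamide, had 6.39, 9.04, 4.18 and 5.79 CPM in Ptch1cKO and 9.59, 15.4, 6.57 and 7.82 CPM in WT. WT replicate 2 was the highest of the 8 libraries and Ptch1cKO replicate 3 the lowest, with overlap between groups. The log2 fold change was -0.62 (SE 0.33, 95% interval -1.33 to 0.08), and at 0.0798 its unadjusted p was the smallest among the 9 (edgeR).

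The diacylglycerol lipases differed from each other far more than either differed by genotype. Dagla, the main source of 2-arachidonoylglycerol in the brain, had 97.3, 86.5, 82.4 and 65.5 CPM in Ptch1cKO and 68.0, 80.2, 114 and 91.4 CPM in WT. The groups covered much the same range, with WT replicate 3 highest. Its log2 fold change was -0.09 (SE 0.18, 95% interval -0.47 to 0.29). Daglb, better known from microglia and macrophages, had 7.24, 8.17, 6.64 and 6.78 CPM in Ptch1cKO and 6.73, 6.44, 2.66 and 11.7 CPM in WT. The WT libraries enclosed the range of the Ptch1cKO libraries, and WT replicate 3, with 19 counts, was the lowest of all. That library also had the lowest summed microglial markers, 440 CPM, but WT replicate 4, the highest in Daglb, had 658 CPM, below WT replicates 1 and 2. The part of microglial RNA in Daglb was not tested. The log2 fold change of Daglb was 0.08 (SE 0.37, 95% interval -0.70 to 0.87), and an exon overlaps the opposite-strand gene Rac1. Per length, Dagla made up 84.6 to 88.4% of the summed TPM of both lipases in Ptch1cKO and 81.6 to 96.1% in WT.

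Among the enzymes that break down 2-arachidonoylglycerol, Mgll, the main one in the brain, had 85.1, 120, 80.9 and 78.8 CPM in Ptch1cKO and 80.9, 90.7, 92.2 and 91.4 CPM in WT. Ptch1cKO replicate 2 stood above the other 7 libraries, whose values lay between 78.8 and 92.2 CPM. The log2 fold change was 0.04 (SE 0.16, 95% interval -0.30 to 0.38), and without Ptch1cKO replicate 2 it was -0.12. An exon of Mgll overlaps the opposite-strand gene Gm26588.

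Abhd6, a membrane enzyme that hydrolyses 2-arachidonoylglycerol in neurons, had 29.4, 29.5, 17.96 and 32.1 CPM in Ptch1cKO and 15.5, 16.2, 24.9 and 25.7 CPM in WT. In 3 Ptch1cKO libraries Abhd6 was above all 4 WT libraries, and Ptch1cKO replicate 3 fell among them. The log2 fold change was 0.41 (SE 0.24, 95% interval -0.11 to 0.93). The WT libraries fell into a lower and a higher pair, replicates 1 and 2 against 3 and 4, which are also the pairs that share a column prefix and differ from the split by Xist.

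Abhd12, which also hydrolyses lysophosphatidylserine and is abundant in microglia, had 154, 126, 172 and 186 CPM in Ptch1cKO and 146, 162, 158 and 157 CPM in WT. The WT libraries lay within the wider range of the Ptch1cKO libraries. The summed microglial markers, in the same order of libraries, were 986, 483, 1274 and 783 CPM in Ptch1cKO and 715, 866, 440 and 658 CPM in WT. Ptch1cKO replicate 2 was lowest in its group in both measures, and WT replicate 2 highest in its group in both. Ptch1cKO replicate 4 was highest in Abhd12 and replicate 3 in the markers. WT replicate 1 was lowest of its group in Abhd12 and WT replicate 3 in the markers. The part of microglial RNA in this gene was not tested. Its log2 fold change was 0.03 (SE 0.14, 95% interval -0.26 to 0.33), the narrowest interval of the 9.

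Summed over Mgll, Abhd6 and Abhd12, these hydrolases reached 296 ± 29.4 TPM in Ptch1cKO and 305 ± 23.6 TPM in WT (SD, n = 4 each). Abhd12 contributed 61.6 to 77.0% of that sum in Ptch1cKO and 71.3 to 75.2% in WT. The share of Mgll was 13.1 to 24.3% in Ptch1cKO and 17.3 to 17.5% in WT, so it was nearly the same in the 4 WT libraries. The highest share was again in Ptch1cKO replicate 2.

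Cnr1, the cannabinoid receptor, had 80, 100, 38 and 93 counts in Ptch1cKO and 45, 79, 200 and 68 counts in WT. In CPM these were 11.4, 17.4, 9.35 and 15.4 in Ptch1cKO and 7.57, 12.4, 28.0 and 14 in WT. The WT group held both the lowest and the highest library, and its coefficient of variation, 56.5%, was more than that of any other of the 10 genes in either group. The log2 fold change was -0.21 (SE 0.35, 95% interval -0.96 to 0.53). Without WT replicate 3, the library with the most Cnr1, it was 0.24, so its sign rests on that library. The summed neuronal markers of WT replicate 3, at 4574 CPM, lay within the range of the other 7 libraries, 3972 to 5486 CPM, but most of that sum is Snap25. Gad1, a marker of inhibitory neurons looked at after the values were seen, had 25.1, 32.8, 42.55 and 27.3 CPM in Ptch1cKO. In WT it had 61.7, 20.6, 30.9 and 24.9 CPM. Gad1 alone does not stand for all inhibitory neurons. The part of neuronal RNA in Cnr1 was not tested.

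**Figure D3:**
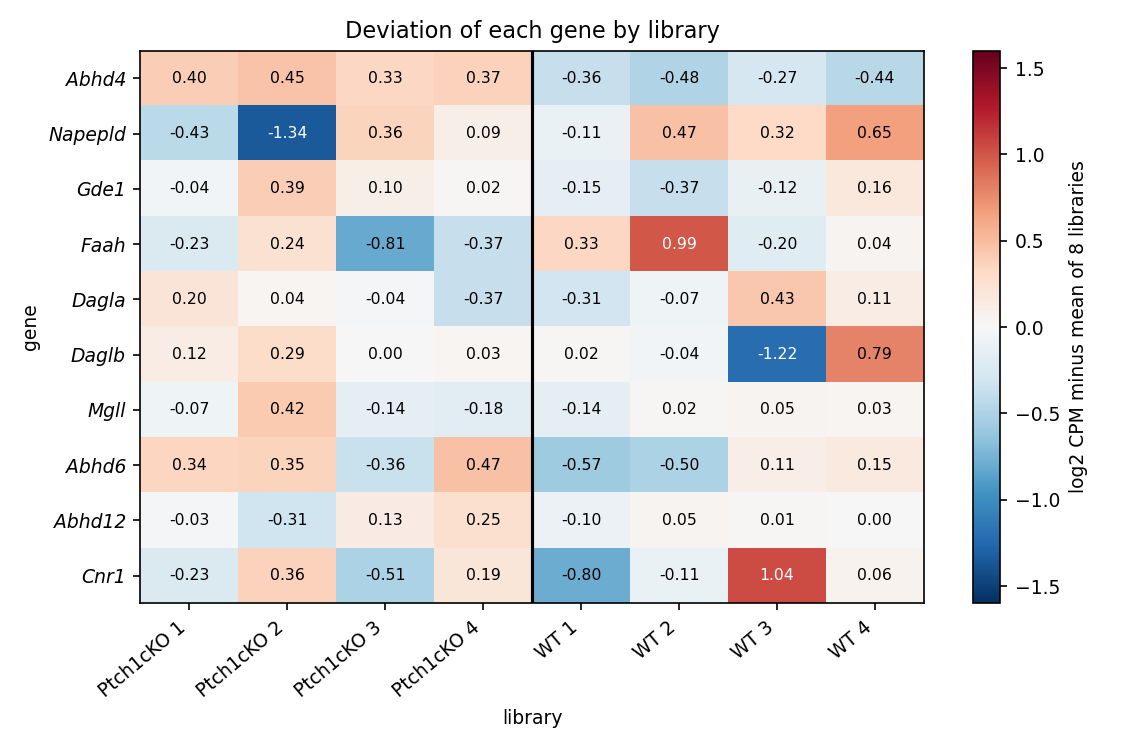
Each cell gives the log2 CPM of a gene in a library minus its mean over the 8 libraries, red for higher and blue for lower, with Ptch1cKO libraries left of the line. Abhd4 is positive in the 4 Ptch1cKO libraries and negative in the 4 WT libraries, a split fixed by the choice of the list. The strongest colours of the other genes sit in single libraries, such as Napepld in Ptch1cKO replicate 2 (-1.34). Daglb (-1.22) and Cnr1 (1.04) in WT replicate 3 are further cases.

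Per length, the 10 genes spanned about 2 orders of magnitude, and the order was nearly the same in both genotypes. Abhd12 had the highest level, 210 ± 33.2 TPM in Ptch1cKO and 223 ± 13.7 TPM in WT (SD, n = 4 each), and Abhd4 came next. In both groups the ranges of Abhd12 and Abhd4 did not overlap, nor did those of Abhd4 and Mgll. Mgll, Gde1, Dagla and Abhd6 formed a middle set, with means of 35.4 to 50.3 TPM in Ptch1cKO and 28.8 to 53.0 TPM in WT, and each overlapped its neighbour in the order. Dagla stood below Gde1 in Ptch1cKO and above it in WT, inside their spread. Below a gap that no library crossed came Cnr1, Daglb and Faah, with means of 4.28 to 5.88 TPM in Ptch1cKO and 5.95 to 7.35 TPM in WT, again overlapping. Napepld was last, at 1.07 ± 0.551 TPM in Ptch1cKO and 1.86 ± 0.493 TPM in WT (SD, n = 4 each), and its range in WT overlapped that of Daglb. Libraries were enriched with exome capture probes, so levels of different genes also depend on capture.

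**Figure D4:**
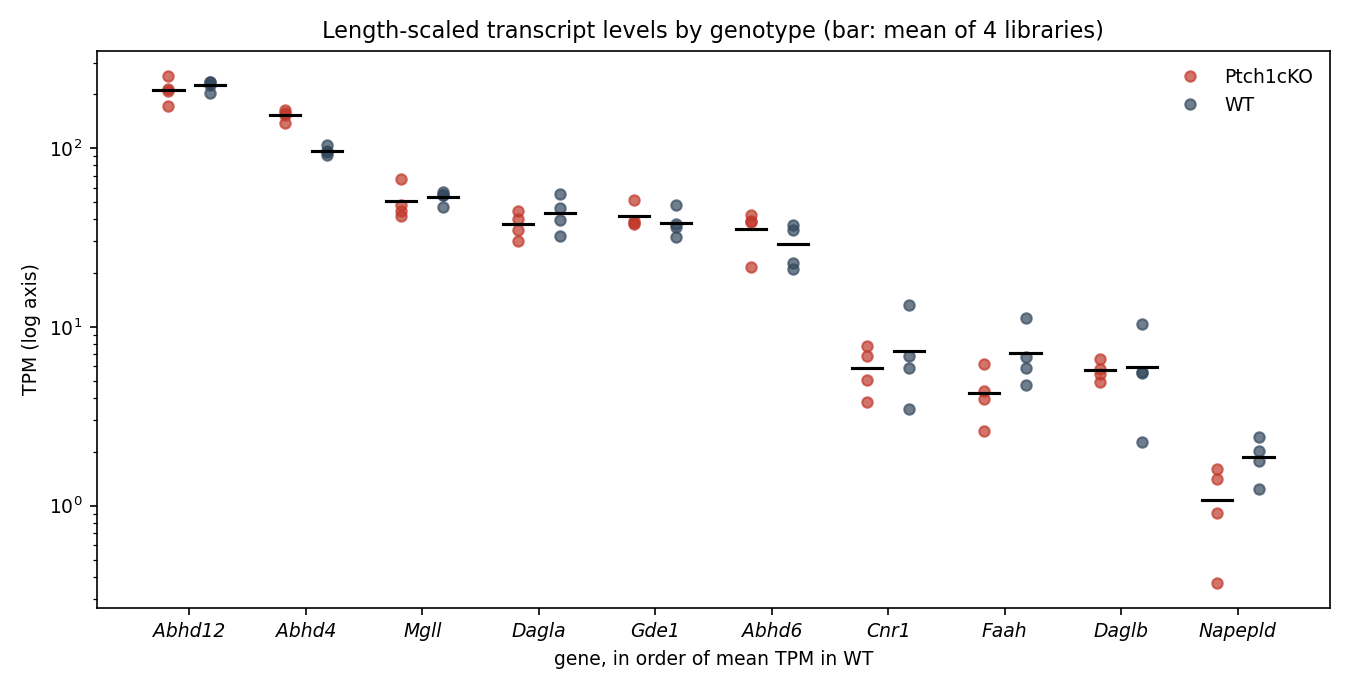
TPM, on a log axis, is plotted for each gene in order of its mean in WT, with Ptch1cKO points left of WT points and a bar at the mean of 4 libraries. Abhd12 and Abhd4 stand above a middle set of 4 genes, a lower set of 3 follows, and Napepld is lowest at 1.07 TPM in Ptch1cKO and 1.86 TPM in WT.

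The wider pathway was read from a list of 30 further genes for synthesis, breakdown, upstream phospholipase C, receptors and carriers. Of these, 19 were tested and 0 passed in either direction by edgeR, where 0.1% of all genes tested passed. DESeq2, which called 80 genes over the whole table, called 0 of the list. An unadjusted p under 0.05 was found for 3 of the 19, against 9.34% of all genes tested, and 10 fold changes were positive and 9 negative, with a median of 0.01. The 3 genes with the smallest p are given as values. Pla2g16, a phospholipid-remodelling enzyme that can also form N-acylphosphatidylethanolamine, had 47.2 ± 12.6 CPM in Ptch1cKO and 30.9 ± 4.54 CPM in WT (SD, n = 4 each). Pla2g4e, the calcium-dependent enzyme that makes the same precursor, had 4.90 ± 2.28 CPM in Ptch1cKO and 12.8 ± 8.50 CPM in WT (SD, n = 4 each), with a log2 fold change of -1.39 (SE 0.48). In edgeR without the filter on low counts Pla2g4e was 1 of 199 genes called over the whole table, against 11 called with the filter. An exon of Pla2g4e overlaps the same-strand gene Gm13997. Plcb3, a phospholipase C that makes diacylglycerol, had 39.5 ± 6.86 CPM in Ptch1cKO and 30.2 ± 1.58 CPM in WT (SD, n = 4 each). It was the 1 gene of the 19 whose groups did not overlap, where 5.02% of all genes tested did not, so nothing is read from that count. An exon overlaps the opposite-strand gene Ppp1r14b.

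Among the other receptors listed, Cnr2, Gpr55, Gpr119, Gpr18 and Trpv1 had too few counts to be tested, and Ppara was tested. Ppara, the nuclear receptor activated by some N-acylethanolamines, had 7.66 ± 3.86 CPM in Ptch1cKO and 12.6 ± 6.41 CPM in WT (SD, n = 4 each), in groups that overlapped, with a log2 fold change of -0.69 (SE 0.39). The cannabinoid receptor gene Cnr2 had 0 counts in all 8 libraries, which allows up to 0.129 CPM in Ptch1cKO and 0.124 CPM in WT (3 counts over the group, counting error only). Trpv1, the capsaicin channel that also binds anandamide, had 6 counts in Ptch1cKO and 14 in WT over 4 libraries each, and differences in it were not detectable at this depth. Inpp5d and Plcb2, genes mainly expressed in blood-derived cells and microglia and picked after their values were seen, had 61.4 ± 26.6 and 9.19 ± 5.89 CPM in Ptch1cKO and 39.97 ± 12.4 and 4.74 ± 0.947 CPM in WT (SD, n = 4 each). The microglial marker sums given above run the same way in their means, and their part in these values was not tested.

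Among 14 further members of the Abhd hydrolase family with a row, 12 were tested, 0 passed by edgeR, DESeq2 called 0 and 1 had an unadjusted p under 0.05. Over all genes tested the shares were 0.1% called by edgeR, 9.34% with an unadjusted p under 0.05 and 5.02% without overlap. DESeq2 called 80 genes over the whole table. These counts do not set the family apart. Of the 12 fold changes 5 were positive and 7 negative, with a median of -0.07. The gene with the smallest p was Abhd1, with 2.12 ± 0.626 CPM in Ptch1cKO and 4.82 ± 2.32 CPM in WT (SD, n = 4 each) in groups that did not overlap. Its annotated exons overlap those of the opposite-strand gene Preb. Abhd3, a phospholipase for medium-chain lipids, had 110 ± 29.2 CPM in Ptch1cKO and 88.5 ± 15.4 CPM in WT, and Abhd8 had 31.1 ± 7.54 CPM in Ptch1cKO and 38.2 ± 9.35 CPM in WT (SD, n = 4 each). Abhd5, the closest relative of Abhd4, had 29.3 ± 7.14 CPM in Ptch1cKO and 32.4 ± 8.15 CPM in WT (SD, n = 4 each).

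Genes with a pattern like that of Abhd4 were ranked by Pearson's correlation of log2 CPM over the 8 libraries, among 6755 other genes averaging 10 CPM or more. The 5 most alike were the lysosomal protease gene Ctsb, 2310022B05Rik, the matricellular gene Sparc, the glycolytic gene Gpi1 and the adhesion gene Flrt1, with correlations of 0.960 to 0.971. These values are descriptions and share the genotype difference, since all 8 libraries enter. Ctsb had 116 ± 4.52 CPM in Ptch1cKO and 78.4 ± 6.47 CPM in WT, and 2310022B05Rik 33.0 ± 4.12 CPM in Ptch1cKO and 16.1 ± 2.89 CPM in WT (SD, n = 4 each). After each genotype was centred on its own mean, none of these 5 stayed among the nearest, and their correlations with Abhd4 were 0.297 to 0.681. The nearest were then Ntm, Ogdhl, Raver2, Prex1 and Apoe, at 0.949 to 0.985, which differed little by genotype: Apoe, the main astrocyte apolipoprotein, had 723 ± 138 CPM in Ptch1cKO and 643 ± 190 CPM in WT (SD, n = 4 each). These 5 are the highest of 6755 correlations over 8 libraries. Within genotypes Abhd4 varied by 3.57% in Ptch1cKO and 6.44% in WT, where counting error alone gives 3.27% and 4.15%. No shared regulation is read from the centred values. Of the other 9 genes of the list, Gde1 was the most like Abhd4 over all 8 libraries, at 0.583, and Cnr1 after centring, at 0.572.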

How the data were processed

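The authors deposited read counts per gene symbol, whole numbers with no normalization, and TPM, which they computed. Both tables cover the same 8 libraries, made by low-input cDNA synthesis and exome capture per the labels' protocols. Demultiplexing with bcl2fastq 2.18 and the use of STAR 2.5 with build mm10 are stated per the submitters' processing notes. The sources used here do not give the counting program, annotation or strand setting. Total counts were 4061274 to 7206462 per library, so genes with few counts carry wide counting error.

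Genotypes were compared on these counts by edgeR 4.0.16 under R 4.3.3 (filterByExpr by group with its default minimum count of 10, TMM factors, robust quasi-likelihood F test, genotype as the only term). P-values were adjusted by Benjamini-Hochberg over all 10954 genes tested, with a threshold of 0.05. The SE is the log2 fold change divided by the square root of F, and the 95% interval uses the degrees of freedom of that test. The test was checked on simulated counts. Alternatives used DESeq2 1.42.0 and limma 3.58.1, with limma on log2(TPM + 1) and log2(TPM + 0.1), so those fold changes are on the log2(TPM + pseudocount) scale.

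The genes, the lists and the tests were chosen with earlier results of these data known. The named genes are the 10 of the list, the 3 of each further list with the smallest p, low receptor genes the pathway turns on, and the 5 most like Abhd4; Inpp5d, Plcb2, Abhd5, Ppara, Gad1 and Dad1 were named after their values were seen. Promoter bases are from RefSeq on GRCm38.p6, the assembly of mm10, and 8 of the 10 genes matched. No pair of libraries of the same genotype agreed within counting noise (chi-square per degree of freedom of at least 10.4). Pairs across genotypes were not compared. No deposited column was left out.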

Additional observations from a re-analysis of the deposited data

Results flagged for a closer look

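In 20 groups of 4 libraries (10 genes in both genotypes), a gap of more than 0.829 of the group's range between the end library and its neighbour was found in 2, where chance gives about 1 in 20. Both were in Mgll. Ptch1cKO replicate 2, at 120 CPM, stood above the other Ptch1cKO libraries by 0.847 of the range. WT replicate 1, at 80.9 CPM, stood below the other WT libraries by 0.861 of the range, although it lies within the range of the Ptch1cKO libraries.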

How the results depend on the processing

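Abhd4 was higher in Ptch1cKO under every alternative run, with log2 fold changes of 0.65 to 0.81, but its call depended on the setting. It passed with RLE size factors, DESeq2, no filter on low counts, no robust estimation and without Ptch1cKO replicate 2. It did not pass with the replicate number of the titles as a block (replicate block: log2 fold change 0.78, adjusted p = 0.130), when only the 6 libraries holding fewer than 10 Xist counts were fitted (0.79, adjusted p = 0.203), or in limma on log2(TPM + 1), log2(TPM + 0.1) and log2(TPM + 1) without a filter (0.65, 0.66 and 0.65, adjusted p = 0.230, 0.252 and 0.361). Leaving out 1 library at a time gave log2 fold changes of 0.75 to 0.81 and adjusted p-values of 0.0435 to 0.132. Fits with fewer libraries have fewer residual degrees of freedom.

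The number of genes called over the whole table, 11, became 80 with DESeq2, 199 without the filter on low counts, 5 with the replicate block, 3 in those 6 low-Xist libraries, and 1, 2 and 0 in the same limma fits. It was 1 to 19 with 1 library left out. Beside the 0 from limma, 1545 genes had an unadjusted p under 0.05. The cause was not tested. Libraries with the same replicate number in their titles did not deviate together (correlations of -0.166 to 0.0179 over 10954 genes). The deposited columns number some Ptch1cKO libraries differently from the titles, and pairs by column number were not compared. Whether the samples were paired in their origin or preparation was not tested.

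The 9 other genes were called in 0 of their 153 alternative values, and 17 of these turned in sign. The 5 genes concerned, Abhd12, Mgll, Dagla, Daglb and Cnr1, had main log2 fold changes of -0.21 (Cnr1) to 0.08 (Daglb). Abhd12 was -0.10 in all 3 limma fits, and Mgll was -0.10 in each of them. In the 6 low-Xist libraries Dagla was 0.059, Daglb -0.35 and Cnr1 0.32. With 1 library left out, Abhd12 had -0.049 to 0.14, Mgll -0.12 to 0.10, Dagla -0.20 to 0.055, Daglb -0.19 to 0.45 and Cnr1 -0.44 to 0.24. An unadjusted p under 0.05 (edgeR) was found for 2 of the 10 genes, Abhd4 included, in 3 of these fits. They were the fits without WT replicate 3, Ptch1cKO replicate 2 and Ptch1cKO replicate 3. In every other alternative 1 of the 10 genes had such a p. The depth limits Napepld most, at 34 counts in Ptch1cKO and 59 in WT over 4 libraries each.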
